A study of Mus musculus with 32 samples.

Results

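Collagens other than type IV were followed at the transcript level in mouse kidneys that lack Col4a3 and in wild-type kidneys. Col4a3 encodes a chain of the type IV collagen of the glomerular basement membrane. The members are all genes whose symbol reads Col, a number, a and a number, leaving out those that start with Col4a. Of 22180 named genes, 38 met this rule. They comprise 11 fibrillar collagens, the 6 chains of type VI collagen (the beaded class), 9 FACITs (fibril-associated collagens with interrupted triple helices) and 12 others. Whole kidney was taken from male mice of the 129 strain. The 4 groups of 8 mice were Col4a3-/- (KO) at 7 weeks, Col4a3+/+ (WT) at 7 weeks, KO at 4 weeks and WT at 4 weeks. Every mouse contributed 1 Affymetrix Mouse Gene 2.0 ST array, which gave 32 arrays of gene-level log2 signals after robust multi-array averaging. Each gene was read from its feature with the highest mean, where a feature is a set of probes summarised to 1 value. The labels do not say which stretch of Col4a3 the KO allele lacks, so its level checks the genotypes only as far as the probes reach that stretch.

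Fibrillar collagens are cleaved outside the cell from procollagens and assemble into the banded fibrils that give connective tissue its tensile strength. FACITs coat the surface of those fibrils, type VI collagen forms beaded microfibrils between fibrils and basement membranes, and the multiplexins, type XV and type XVIII collagen, lie in and next to basement membranes. In a scarring kidney, fibroblasts and myofibroblasts of the interstitium are the best known source of fibrillar collagen. Loss of Col4a3 is a mouse model of Alport syndrome, in which defective glomerular basement membranes are followed by fibrosis of the kidney.

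Col4a3 itself had 6.97 to 7.87 in KO and 8.74 to 9.06 in WT mice at 7 weeks, and 7.60 to 8.42 in KO and 8.46 to 9.33 in WT mice at 4 weeks (log2 signal). Within groups the arrays correlated at 0.965 to 0.995. The median over all genes of an array was on average 0.114 higher on the log2 scale in KO than in WT mice at 7 weeks, and 0.0166 higher at 4 weeks. The labels name single mice and no batch. The number of arrays limits the precision of all values below. Differences below are limma estimates on the log2 scale, given ± their standard error, over n = 8 mice in each group unless stated otherwise. A gene passed where its p, adjusted by Benjamini-Hochberg over the 22180 genes, was below 0.05.

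Of the 38 collagens at 7 weeks, 14 were higher in KO than in WT mice, 3 were lower and 21 did not pass. The higher genes made up 36.8% of the collagens, against 15.6% of all named genes higher and 16.7% lower. The higher genes were the fibrillar Col1a1, Col1a2, Col3a1, Col5a1 and Col5a2, the type VI chains Col6a1, Col6a2 and Col6a3, the FACITs Col12a1 and Col14a1, and Col8a1, Col15a1, Col17a1 and Col18a1. Lower were Col27a1, Col6a6 and Col19a1. Of the 16 collagens whose mean signal over all mice was at or above the median of all genes (6.27), 14 passed. Of the 22 below it 3 passed. That mean takes in the KO mice of 7 weeks, so a rise in them lifts a gene towards the upper set. Col12a1 averaged 8.04 in those mice and 5.78 to 6.06 in the other groups, and stood at 6.42 over all mice. These counts are thus partly tied to the calls and cannot tell how far low signal hid differences. Low signals still limit what these arrays can show. The median difference was 0.05 over the 38 collagens and -0.06 over all genes, so the median collagen lay close to the median gene. With each array centred on its median, 14 collagens were higher and 8 lower, and over all genes 2568 were higher and 8324 lower. All 9 measured fibroblast and myofibroblast markers and all 5 macrophage markers were also higher in KO mice at this age, and their part in the collagen values was not tested. In whole kidney, more cells of a type and more RNA per cell cannot be told apart. For 12 collagens every KO mouse lay above every WT mouse, which held for 7.62% of all genes. No collagen had every KO mouse below every WT mouse, which held for 5.42% of all genes.

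Among the fibrillar collagens 5 of 11 rose, 1 fell and 5 did not pass. The share that passed was 54.5%, against 32.3% of all named genes, and 45.5% rose against 15.6%. Col3a1, the single chain of type III collagen, had a lowest, median and highest value of 8.25, 9.31 and 9.61 in KO mice, against 6.53, 7.07 and 7.28 in WT mice. Its lowest KO mouse was 0.963 above its highest WT mouse. The difference of 2.07 ± 0.14 corresponds to 4.21-fold (adjusted p = 2.24e-13). Col1a1, the main chain of type I collagen, had 8.10, 8.54 and 9.11 in KO mice and 6.26, 6.63 and 6.92 in WT mice. Again no KO mouse reached down to the WT range, and the difference was 1.93 ± 0.17, or 3.81-fold (adjusted p = 1.04e-10). Col1a2, which supplies the other chain of type I collagen, had 8.35, 9.01 and 9.28 in KO mice and 7.05, 7.22 and 7.40 in WT mice. These groups were 0.943 apart at their nearest mice, with a difference of 1.71 ± 0.11 (3.26-fold, adjusted p = 2.02e-13). Both chains of type I collagen and type III collagen therefore stood high in all 8 KO mice.

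Type V collagen is a minor component that sets the diameter of type I fibrils, and its Col5a1 and Col5a2 chains rose less. Col5a1 had 6.82 to 7.23 in KO mice and 6.16 to 6.46 in WT mice (0.73 ± 0.08, adjusted p = 1.56e-08). Col5a2 had 6.10 to 6.59 in KO mice and 5.21 to 5.98 in WT mice (0.67 ± 0.09, adjusted p = 3.44e-07). Neither pair of groups overlapped, although the gap of Col5a2 was only 0.116. Col5a1 is read by a second feature, which differed by -0.08 and did not pass (adjusted p = 0.586), so the value for this gene depends on the feature taken. The third chain, Col5a3, did not pass. The other fibrillar genes that did not pass were Col2a1, Col11a1 and Col11a2, known from cartilage, and Col24a1. With Col5a3 they lay between -0.05 and 0.15, with 95% confidence limits from -0.22 to 0.34. Of 6 cartilage markers 0 rose and 1 fell, against 15.6% and 16.7% of all genes. It was the link protein gene Hapln1, lower by 1.28 on the log2 scale (adjusted p = 2.46e-06).

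Col27a1 encodes a fibrillar collagen best known from cartilage, and it went the other way. It had a lowest, median and highest value of 6.96, 7.51 and 8.04 in KO mice, against 7.94, 8.00 and 8.20 in WT mice. Of the 8 KO mice, 7 lay below all WT mice and the groups overlapped through KO mouse 3. The difference was -0.56 ± 0.14 (adjusted p = 0.00224). Its spread was also wider, with an SD of 0.35 in KO and 0.09 in WT mice (n = 8 each). Promoter sequence of 2 fibrillar genes that rose and of this one that fell is shown because they moved in opposite directions. It is the 250 bases before the start site, 5′ to 3′, from RefSeq on build GRCm38.p6. Col3a1 is at chr1:45311288-45311537 on the plus strand, Col1a2 at chr6:4505368-4505617 on the plus strand and Col27a1 at chr4:63215162-63215411 on the plus strand. Capitals mark 4 motifs searched on both strands. They are the CCAAT box, the GC box with the letters GGGCGG, the TATA box with the letters TATAAA, and the AP-1 motif with the letters TGANTCA. All are matches of letters, and whether any works as a promoter element was not tested. The TATAAA of Col3a1 lies at -117 from the start site.
Col3a1: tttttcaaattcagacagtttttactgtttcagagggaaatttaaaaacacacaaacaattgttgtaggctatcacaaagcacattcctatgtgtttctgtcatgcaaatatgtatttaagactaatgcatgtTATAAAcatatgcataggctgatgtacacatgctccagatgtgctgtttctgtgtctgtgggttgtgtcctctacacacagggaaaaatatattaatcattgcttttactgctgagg
Col1a2: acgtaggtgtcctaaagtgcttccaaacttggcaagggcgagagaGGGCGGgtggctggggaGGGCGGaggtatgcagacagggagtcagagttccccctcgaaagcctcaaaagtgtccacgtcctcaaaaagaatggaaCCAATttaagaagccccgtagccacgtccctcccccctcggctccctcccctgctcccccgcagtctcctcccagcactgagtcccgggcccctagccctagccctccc
Col27a1: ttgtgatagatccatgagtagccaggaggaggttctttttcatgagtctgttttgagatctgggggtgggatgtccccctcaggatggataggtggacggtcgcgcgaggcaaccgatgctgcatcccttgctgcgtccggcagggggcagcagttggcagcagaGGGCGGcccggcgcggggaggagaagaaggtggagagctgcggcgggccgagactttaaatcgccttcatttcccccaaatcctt

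**Figure D1:**
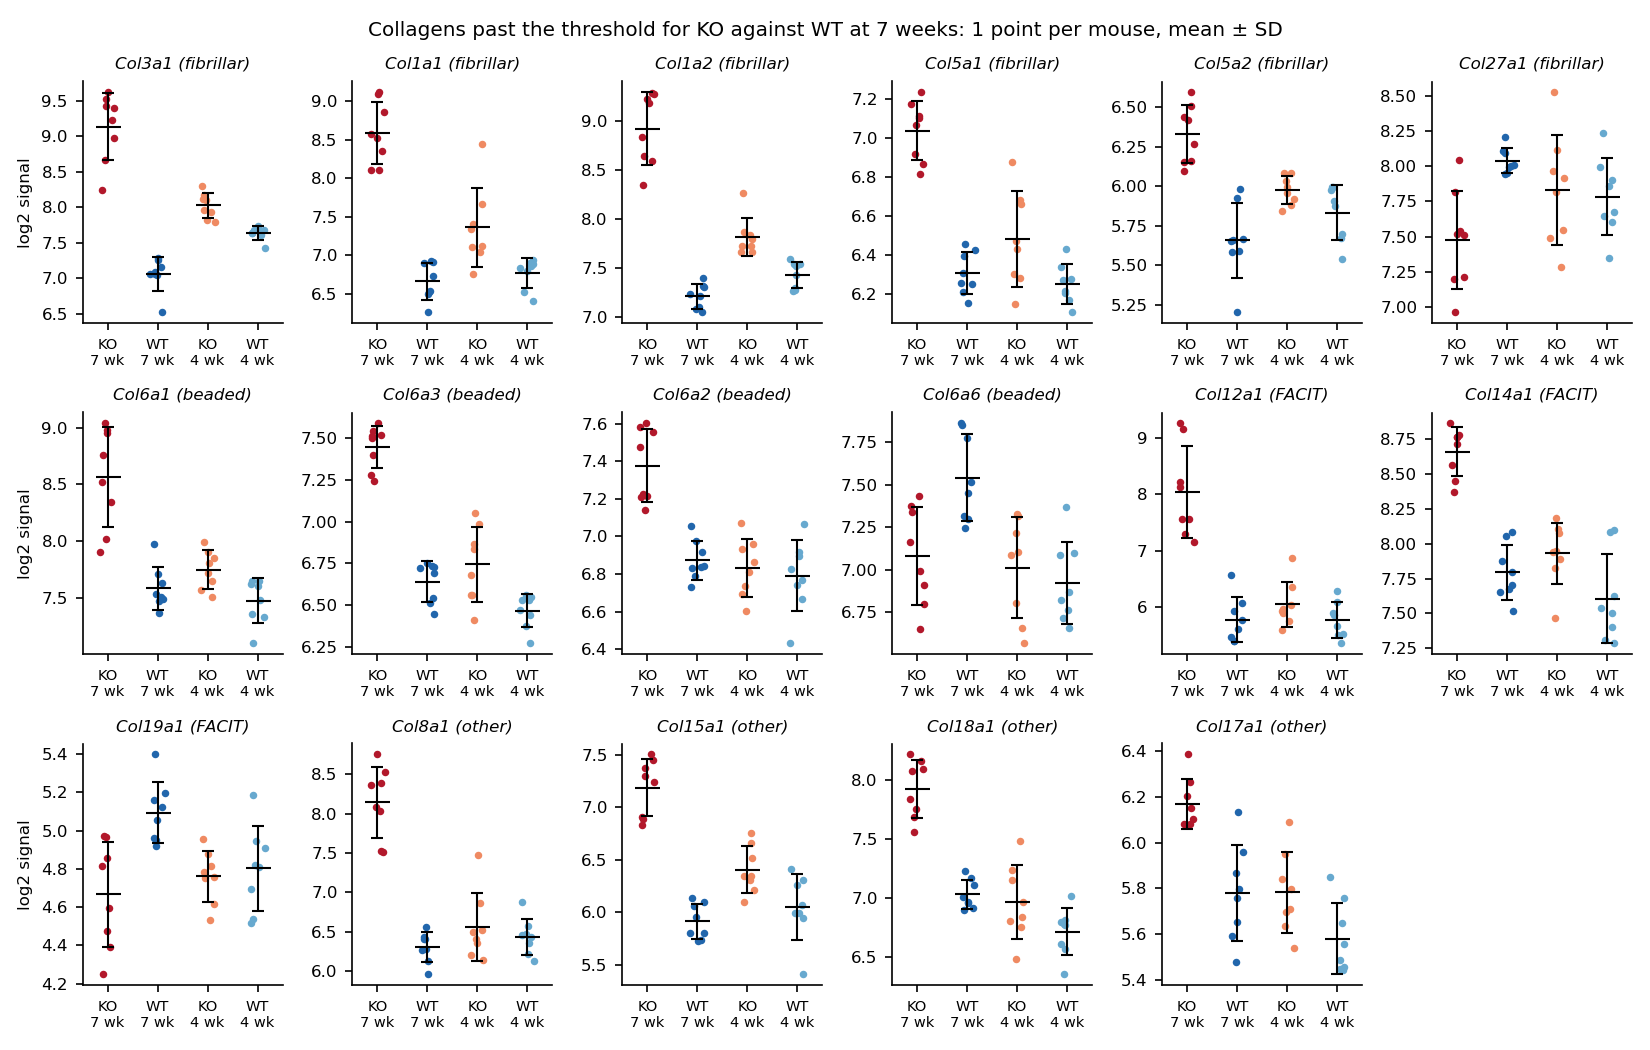
Log2 signal (vertical axis) of each mouse for the 17 collagens that passed at 7 weeks, with KO and WT at 7 weeks and then KO and WT at 4 weeks along the horizontal axis. Points are mice, and bars are the mean ± SD of 8 mice. Every KO mouse at 7 weeks lies above every WT mouse at 7 weeks for 12 of the 17, and Col27a1, Col6a6 and Col19a1 lie lower in KO.

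Type VI collagen showed both directions. Its microfibrils are built from the chains of Col6a1 and Col6a2 with 1 further chain, usually that of Col6a3, and the later-found chains of Col6a4, Col6a5 and Col6a6 can take its place. Col6a1 had 7.90, 8.64 and 9.04 in KO mice and 7.37, 7.52 and 7.97 in WT mice, with 7 of 8 KO mice above all WT mice. It rose by 0.98 ± 0.13 (1.97-fold, adjusted p = 3.52e-07), and its second feature gave 0.92. Col6a3 had 7.24, 7.51 and 7.59 in KO mice and 6.45, 6.71 and 6.75 in WT mice, and rose by 0.81 ± 0.08 (adjusted p = 7.28e-10). Col6a2 lay at 7.14 to 7.60 in KO mice and 6.73 to 7.06 in WT mice, and rose by 0.50 ± 0.08 (adjusted p = 1.31e-05). KO and WT mice did not overlap for Col6a3 and Col6a2. Col6a6 was lower, with 6.65, 7.08 and 7.43 in KO mice against 7.25, 7.48 and 7.86 in WT mice. Of its KO mice 5 of 8 lay below all WT mice, and the difference was -0.46 ± 0.13 (adjusted p = 0.00632). Col6a5 differed by -0.19 and Col6a4 by 0.02, and neither passed. Both had low signals, with means over all mice of 4.44 for Col6a5 and 5.29 for Col6a4, below the median of all genes (6.27). In the RefSeq gene order Col6a1 and Col6a2 are neighbours on chromosome 10, and Col6a4, Col6a5 and Col6a6 follow each other on chromosome 9. The promoter of the lower chain is at chr9:105828086-105828335 on the minus strand, with the same motifs in capitals, and shows 2 GC boxes.
Col6a6: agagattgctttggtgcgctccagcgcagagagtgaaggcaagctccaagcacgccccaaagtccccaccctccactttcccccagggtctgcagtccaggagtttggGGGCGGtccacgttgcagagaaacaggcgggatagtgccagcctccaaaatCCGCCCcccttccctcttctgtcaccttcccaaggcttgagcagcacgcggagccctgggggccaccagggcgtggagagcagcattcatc

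Of the 9 FACITs, 2 rose, 1 fell and 6 did not pass. The share that passed was 33.3%, near the 32.3% of all named genes, and 22.2% rose against 15.6%. Col12a1, which binds along type I fibrils, had the largest difference of all 38 collagens. It had a lowest, median and highest value of 7.15, 7.85 and 9.25 in KO mice, against 5.41, 5.70 and 6.57 in WT mice. No KO mouse fell within the WT range, but the KO mice spread over more than 2 log2 units, with an SD of 0.81 against 0.40 in WT mice (n = 8 each). The difference was 2.26 ± 0.24, or 4.78-fold (adjusted p = 5.21e-09). Col14a1, a related FACIT that also associates with fibrils, had 8.37, 8.74 and 8.86 in KO mice and 7.52, 7.75 and 8.09 in WT mice. All KO mice were above all WT mice, and the difference was 0.87 ± 0.11 (adjusted p = 2.90e-07). Col19a1 had 4.25 to 4.97 in KO mice and 4.92 to 5.40 in WT mice, with 6 of 8 KO mice below all WT mice. It fell by 0.43 on the log2 scale (adjusted p = 0.00108). The signal of Col19a1 was low, with a mean over all mice of 4.83, below the lower quartile of all genes (4.86). The 3 chains of type IX collagen, a cartilage FACIT, did not pass, nor did Col16a1, Col20a1 and Col22a1. These 6 genes lay between -0.20 and 0.05, and the nearest to the threshold was Col9a1 (adjusted p = 0.101). Col9a1 and Col19a1 are neighbours on chromosome 1.

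Among the 12 other collagens 4 rose, 0 fell and 8 did not pass. The share that passed was 33.3%, near the 32.3% of all named genes, though 33.3% rose against 15.6%. Col8a1, a short-chain collagen that forms hexagonal networks in vessel walls and corneal membranes, had 7.51, 8.22 and 8.75 in KO mice and 5.96, 6.34 and 6.56 in WT mice. The groups were 0.954 apart, and the difference was 1.84 ± 0.16 (3.58-fold, adjusted p = 1.10e-10). Its partner chain Col8a2 differed by -0.08 and did not pass (adjusted p = 0.574). The signal of Col8a2 was low, with a mean of 4.78 in KO and 4.86 in WT mice, near the lower quartile of all genes (4.86). The multiplexins moved together. Col15a1 had 6.83, 7.27 and 7.50 in KO mice and 5.73, 5.88 and 6.13 in WT mice (1.27 ± 0.12, 2.41-fold, adjusted p = 4.42e-10). Col18a1, whose end fragment is endostatin, had 7.56, 7.95 and 8.21 in KO mice and 6.89, 6.99 and 7.22 in WT mice (0.89 ± 0.11, adjusted p = 1.25e-07). Neither multiplexin overlapped between KO and WT mice. Col17a1, the transmembrane collagen of hemidesmosomes, had 6.08 to 6.39 in KO mice and 5.48 to 6.13 in WT mice. Here only 4 of 8 KO mice lay above all WT mice, with a difference of 0.39 ± 0.08 (adjusted p = 0.000454). The other transmembrane collagens Col13a1, Col23a1 and Col25a1, the anchoring fibril gene Col7a1, the growth plate gene Col10a1, and Col26a1 and Col28a1 lay between -0.21 and 0.14 with Col8a2, and none of the 8 passed. The Col8a1 promoter is at chr16:57754738-57754987 on the minus strand and holds 4 GC boxes, in capitals.
Col8a1: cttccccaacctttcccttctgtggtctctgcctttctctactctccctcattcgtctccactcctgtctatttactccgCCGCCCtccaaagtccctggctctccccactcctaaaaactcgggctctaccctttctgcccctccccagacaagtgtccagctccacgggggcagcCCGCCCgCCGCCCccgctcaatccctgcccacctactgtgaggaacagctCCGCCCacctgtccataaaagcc

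**Figure D2:**
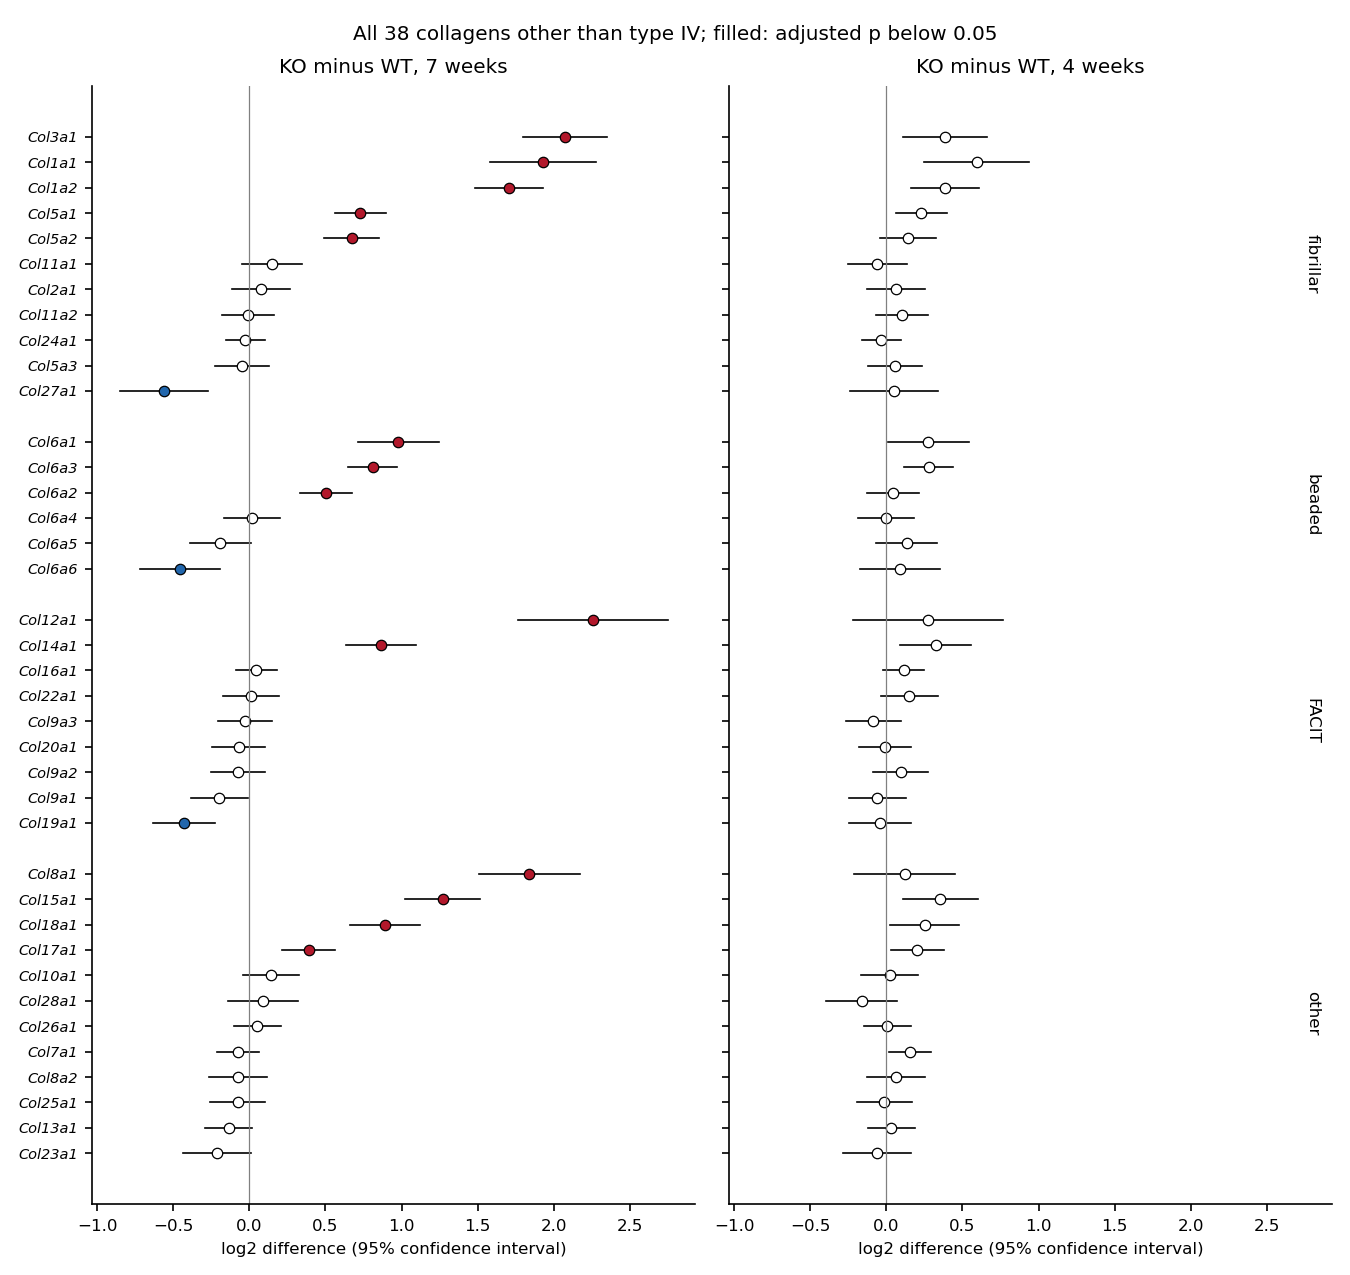
KO minus WT differences on the log2 scale (horizontal axis) with 95% confidence intervals for all 38 collagens by class, at 7 weeks on the left and 4 weeks on the right. Filled points passed the threshold, in red where higher and blue where lower. At 7 weeks 14 are filled on the right of 0 and 3 on the left, and at 4 weeks none is filled, while Col1a1 reaches 0.59.

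RefSeq promoter windows could be matched to 30 of the 38 collagens. Col1a1, Col2a1, Col5a2, Col9a3, Col12a1, Col14a1, Col22a1 and Col26a1 had no window. For the collagens, genes with a motif in any of their windows were counted, and 3 collagens had more than 1 window. The shares over all are of windows, so the 2 measures are not the same. CCAAT was found in 3 of the 10 higher genes with a window, 0 of the 3 lower and 7 of the 17 that did not pass, and in 33.8% of all 32851 windows searched. GGGCGG was found in 5 of 10, 2 of 3 and 11 of 17, and in 32.7% of all windows. TATAAA was found in 2 of 10, 0 of 3 and 3 of 17, and in 12.4% of all. TGANTCA was found in 1 of 10, the Col6a1 window, in 0 of 3 and in 0 of 17, and in 6.75% of all. The shown windows differ in base composition, with 35.2% G and C before Col3a1 and 62.0% before Col1a2.

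The size of the change was not even among the KO mice. Mice 1, 4, 6 and 8 lay above the KO median for 12, 12, 12 and 14 of the 14 genes that rose. Mice 2, 3, 5 and 7 did so for 2, 1, 0 and 3. KO mouse 3 was the lowest of its group in 10 of the 14 genes, and the highest was mouse 1, 4 or 6 in 4 genes each and mouse 8 in 2. Without mouse 3 the difference of Col3a1 was 2.20 and that of Col12a1 was 2.38. Over the 14 genes the median SD was 0.257 in KO mice and 0.188 in WT mice at 7 weeks. Over all 38 collagens it was 0.167 in KO and 0.188 in WT mice. The widest SD was that of Col12a1. The 14 genes were chosen by their difference, so these spreads are given without a test. The array medians over all genes ran the same way, at 6.346, 6.340, 6.338 and 6.370 in mice 1, 4, 6 and 8 and at 6.322, 6.286, 6.276 and 6.323 in mice 2, 3, 5 and 7, a range of under 0.1 on the log2 scale. The summed signal of the macrophage markers was 5536, 5727, 6254 and 5533 in mice 1, 4, 6 and 8 and 3324, 2185, 3186 and 3550 in mice 2, 3, 5 and 7. That of the fibroblast and myofibroblast markers was 10419, 9018, 10765 and 10474 in mice 1, 4, 6 and 8 and 7952, 7312, 6913 and 8659 in mice 2, 3, 5 and 7. Mice high in the collagens were thus also high in these measures, and the part of these measures in the spread was not tested.

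**Figure D3:**
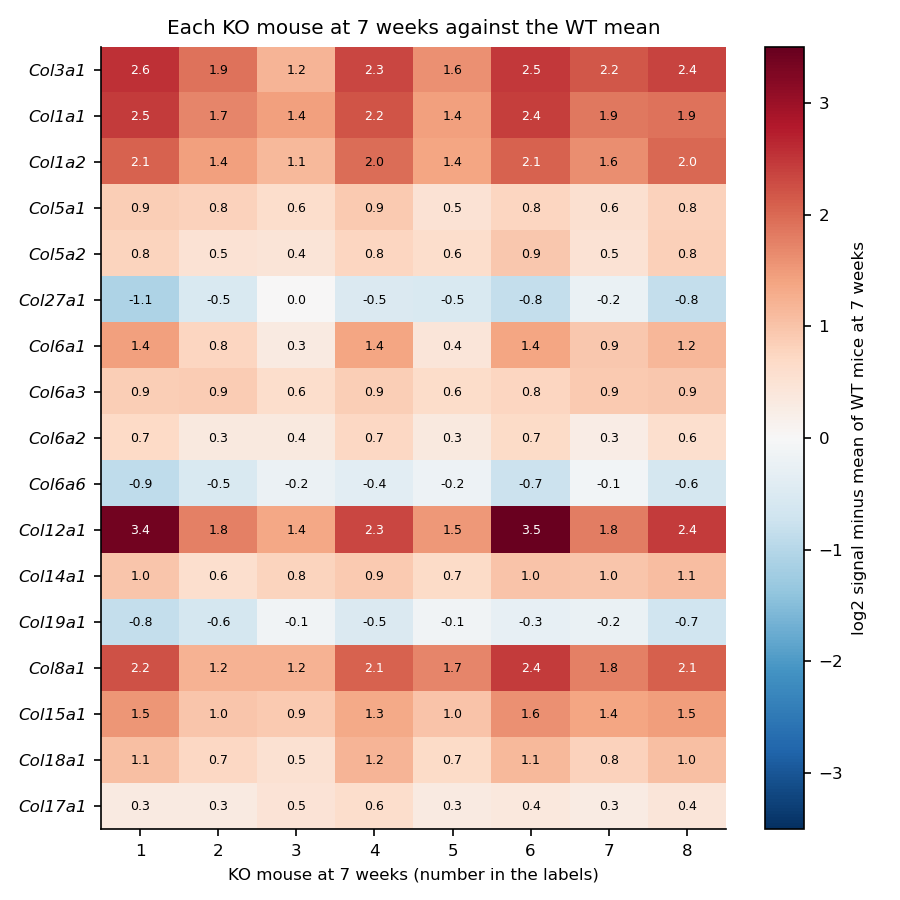
Log2 signal of each KO mouse at 7 weeks (columns, numbered as in the labels) minus the mean of the 8 WT mice of that age, for the 17 collagens that passed (rows). Red is above and blue is below the WT mean. Mice 1, 4, 6 and 8 hold most of the darker cells, and mouse 3 is the palest column for most rows.

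At 4 weeks none of the 38 collagens passed the test (limma, smallest adjusted p = 0.244), as against 0.0406% of all genes. An exact rank-sum test called 0 of all 22180 genes at this age, so its 0 for the collagens says nothing of them in particular. Its unadjusted p was under 0.05 for 9 of the 38 collagens and for 1599 of the 22180 genes. At an unadjusted p under 0.05 the limma fit held 11 collagens, all higher in KO mice, against 4.22% of all genes higher at that level and 4.99% lower. Of these 11, 10 were among the 14 genes that were higher at 7 weeks, in other mice, and the 11th was Col7a1 (0.16 ± 0.07). Of the 38 differences 28 were above 0, or 73.7%, against 48.3% over all genes. The 14 genes that were higher at 7 weeks lay between 0.04 and 0.59 at 4 weeks, with a median of 0.27. The 3 that were lower at 7 weeks lay between -0.04 and 0.09 at 4 weeks, and the other 21 between -0.16 and 0.16.

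Col1a2 and Col3a1 were the 2 collagens with no overlap between KO and WT mice at 4 weeks, though neither passed the test. Col1a2 had a lowest, median and highest value of 7.67, 7.76 and 8.27 in KO mice, against 7.26, 7.47 and 7.59 in WT mice. Col3a1 had 7.80, 8.03 and 8.30 in KO mice and 7.43, 7.66 and 7.74 in WT mice. For both genes all KO mice were above all WT mice by a narrow gap, of 0.0752 for Col1a2 and 0.0585 for Col3a1. Such a separation upwards was seen in 2 of 38 collagens and in 0.0271% of all genes. The differences were 0.39 ± 0.11 for Col1a2 (adjusted p = 0.244) and 0.39 ± 0.14 for Col3a1 (adjusted p = 0.393). Col6a3 had the smallest unadjusted p of the 38 at this age, with 6.41 to 7.05 in KO mice and 6.27 to 6.56 in WT mice (0.28 ± 0.08, adjusted p = 0.244). Col1a1 had 6.75, 7.23 and 8.44 in KO mice and 6.41, 6.84 and 6.94 in WT mice, with 7 of 8 KO mice above all WT mice (0.59 ± 0.17, adjusted p = 0.244). KO mouse 4 was the highest of its group in 9 of the 14 genes. Without it the difference was 0.44 for Col1a1 and 0.32 for Col1a2. In that limma fit 8 collagens had an unadjusted p under 0.05. All genes were not counted there, so no share stands beside that count. Col12a1 and Col8a1, far apart at 7 weeks, overlapped widely at 4 weeks, with differences of 0.27 ± 0.24 and 0.12 ± 0.16.

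The test of the difference between ages asked whether the KO effect at 7 weeks exceeded that at 4 weeks. It passed for 13 collagens in the higher direction and 2 in the lower, against 9.80% and 7.24% of all genes. With each array centred on its median the counts were 13 higher and 5 lower, and those over all genes were 1673 higher and 3360 lower. Col12a1 grew most, by 1.98 ± 0.34 (adjusted p = 9.67e-05), followed by Col8a1 at 1.72 ± 0.23 and Col3a1 at 1.69 ± 0.19. Col1a1 and Col1a2 gained 1.34 and 1.32. Col15a1, Col6a1 and Col18a1 gained 0.92, 0.70 and 0.64, and the 5 others, Col14a1, Col6a3, Col5a2, Col5a1 and Col6a2, gained 0.46 to 0.54. The call of Col5a1 ended with the mean of its features (0.16, adjusted p = 0.342), and its second feature gave -0.18. Col17a1 did not pass (0.19 ± 0.12, adjusted p = 0.320), so its KO effect was not shown to differ between ages. The 2 in the lower direction were Col27a1 at -0.61 ± 0.20 (adjusted p = 0.0328) and Col6a6 at -0.54 ± 0.18 (adjusted p = 0.0371). Both calls sit close to the threshold. Leaving out single mice ended that of Col27a1 in 7 of 32 fits and that of Col6a6 in 15 of 32, and over all alternatives the adjusted p reached 0.0637 and 0.0707. Col19a1 did not pass (-0.39 ± 0.14, adjusted p = 0.0591), though it did in 8 alternatives, with adjusted p-values from 0.0190 to 0.111 over all of them.

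Within the KO mice 14 collagens were higher at 7 than at 4 weeks and 3 were lower, against 21.4% and 21.3% of all genes. With centred arrays 14 were higher and 5 lower, and over all genes 3906 were higher and 7230 lower. The 14 were the same genes that were higher than in WT mice at 7 weeks, a comparison that shares the 7-week KO mice. For 9 of the 14 every mouse at 7 weeks lay above every mouse at 4 weeks, which held for 6.89% of all genes. Col12a1 rose by 1.98 ± 0.24 and Col8a1 by 1.59 ± 0.16. Col1a1, Col3a1 and Col1a2 rose by 1.23, 1.11 and 1.10, and Col5a2 least, by 0.36 ± 0.09 (adjusted p = 0.00157). Lower at 7 weeks were Col27a1 (-0.36 ± 0.14), Col9a1 (-0.26 ± 0.09) and Col8a2 (-0.24 ± 0.09). The call of Col27a1 was lost in 11 of 16 fits without 1 mouse and that of Col8a2 in 10 of 16, and over all alternatives the adjusted p reached 0.156 and 0.0998.

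In WT mice the collagens changed little between the ages. Only 3 were higher at 7 than at 4 weeks and 1 was lower, against 15.4% and 14.1% of all genes. Col3a1 fell by 0.58 on the log2 scale (adjusted p = 0.00130), with 6.53 to 7.28 at 7 weeks and 7.43 to 7.74 at 4 weeks. No WT mouse of 7 weeks reached the range of the younger mice, a pattern that held for 4.48% of all genes. So Col3a1 was higher at 7 than at 4 weeks in KO mice and lower in WT mice, and the interaction given above tests that difference. Col6a6 rose with age in WT mice by 0.62 ± 0.13 (adjusted p = 0.000448), with 7.25, 7.48 and 7.86 at 7 weeks and 6.66, 6.84 and 7.37 at 4 weeks. In KO mice it had 6.65 to 7.43 at 7 weeks and 6.57 to 7.33 at 4 weeks, a difference of 0.07 ± 0.13 that did not pass. The lower Col6a6 of KO mice at 7 weeks was thus set against a WT level that had risen with age. Col19a1 rose in WT mice by 0.29 ± 0.10 (adjusted p = 0.0267) and Col18a1 by 0.32 ± 0.11 (adjusted p = 0.0308). The call of Col19a1 was lost without WT mouse 7 or 8 of 4 weeks or WT mouse 4 of 7 weeks, and that of Col18a1 without WT mouse 1, 2 or 8 of 4 weeks or WT mouse 3, 7 or 8 of 7 weeks. Over all alternatives their adjusted p reached 0.0673 and 0.0794. Leaving out WT mouse 6 of 7 weeks raised the count of collagens that passed to 7, and leaving out WT mouse 8 of 4 weeks lowered it to 2.

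**Figure D4:**
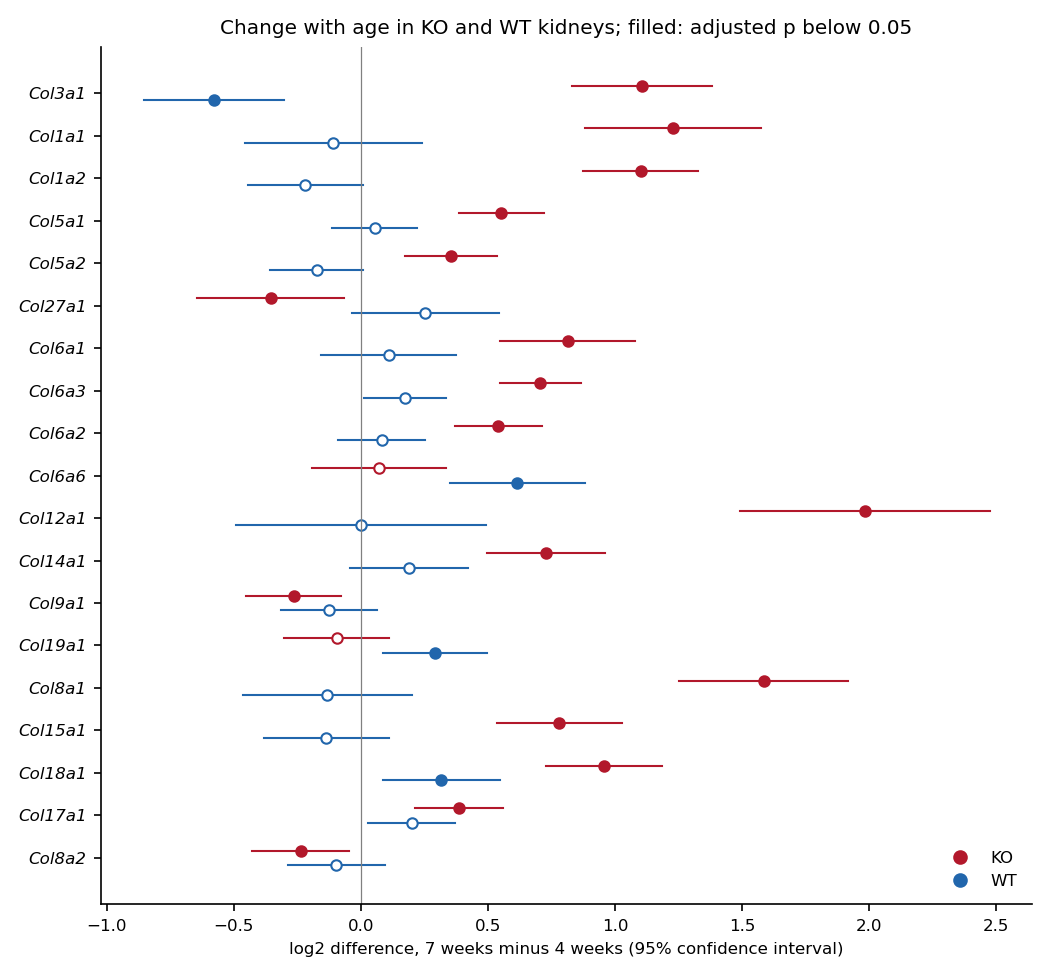
Difference of 7 weeks minus 4 weeks on the log2 scale (horizontal axis, with 95% confidence intervals) in KO mice (red) and WT mice (blue) for the 19 collagens that passed in either genotype or in KO against WT at 7 weeks. Filled points passed the threshold. Col3a1 lies at 1.11 in KO and -0.58 in WT, and Col6a6 at 0.07 in KO and 0.62 in WT.

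Genes that make, sense and break down collagen were counted beside the collagens at 7 weeks. Of 27 measured genes of collagen modification, secretion and cross-linking, 14 rose and 3 fell, against 15.6% of all genes higher and 16.7% lower. Lox, the lysyl oxidase that cross-links fibrils, had a lowest, median and highest value of 6.78, 7.63 and 8.47 in KO mice, against 5.26, 5.62 and 5.89 in WT mice (1.94 ± 0.17, adjusted p = 6.10e-11). Pcolce, which speeds the trimming of procollagen, rose by 0.74 ± 0.09, Plod2, a lysyl hydroxylase, by 0.71 ± 0.08, and the collagen chaperone Serpinh1 by 0.70 ± 0.08. The 3 lower genes were P3h2, a prolyl 3-hydroxylase best known for acting on type IV collagen (-0.46 ± 0.10), and the proteinases Adamts14 (-0.22 ± 0.07) and Tll2 (-0.25 ± 0.08). Mia3, which helps load procollagen into carriers, differed by -0.21 and Adamts3 by 0.20, and neither passed. Plod2 was the one gene of these 3 lists that passed at 4 weeks too. It had 9.12 to 9.57 in KO mice and 8.60 to 9.18 in WT mice at that age (0.44 ± 0.08, adjusted p = 0.0235).

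Of 9 measured collagen receptors, 7 rose and 0 fell at 7 weeks, against 15.6% of all genes higher and 16.7% lower. Itga2, the collagen-binding integrin subunit of platelets and epithelia, had 6.95, 7.50 and 7.96 in KO mice and 5.54, 5.71 and 6.13 in WT mice (1.68 ± 0.14). Lair1, an inhibitory receptor of leukocytes, rose by 1.52 ± 0.14, the receptor kinase Ddr2 by 1.14 ± 0.12 and the shared integrin subunit Itgb1 by 0.68 ± 0.08. Itga11 differed by -0.04 and the platelet receptor gene Gp6 by -0.05, and neither passed. Of 6 degrading enzymes 5 rose and 0 fell, against the same shares of all genes. Mmp2, a gelatinase, had 8.89, 9.87 and 10.40 in KO mice and 6.96, 7.32 and 7.76 in WT mice (2.46 ± 0.19, adjusted p = 4.22e-12). Mmp14, which activates it, rose by 1.55 ± 0.14, Ctsk by 1.03 ± 0.14 and Mmp8 by 0.49 ± 0.11, while Mmp13 differed by 0.08 ± 0.19 and did not pass. Lox, Itga2 and Mmp2 had no overlap between KO and WT mice at 7 weeks. The median difference was 0.20 over the processing genes, 0.68 over the receptors and 0.76 over the degrading enzymes, beside -0.06 over all genes.

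**Figure D5:**
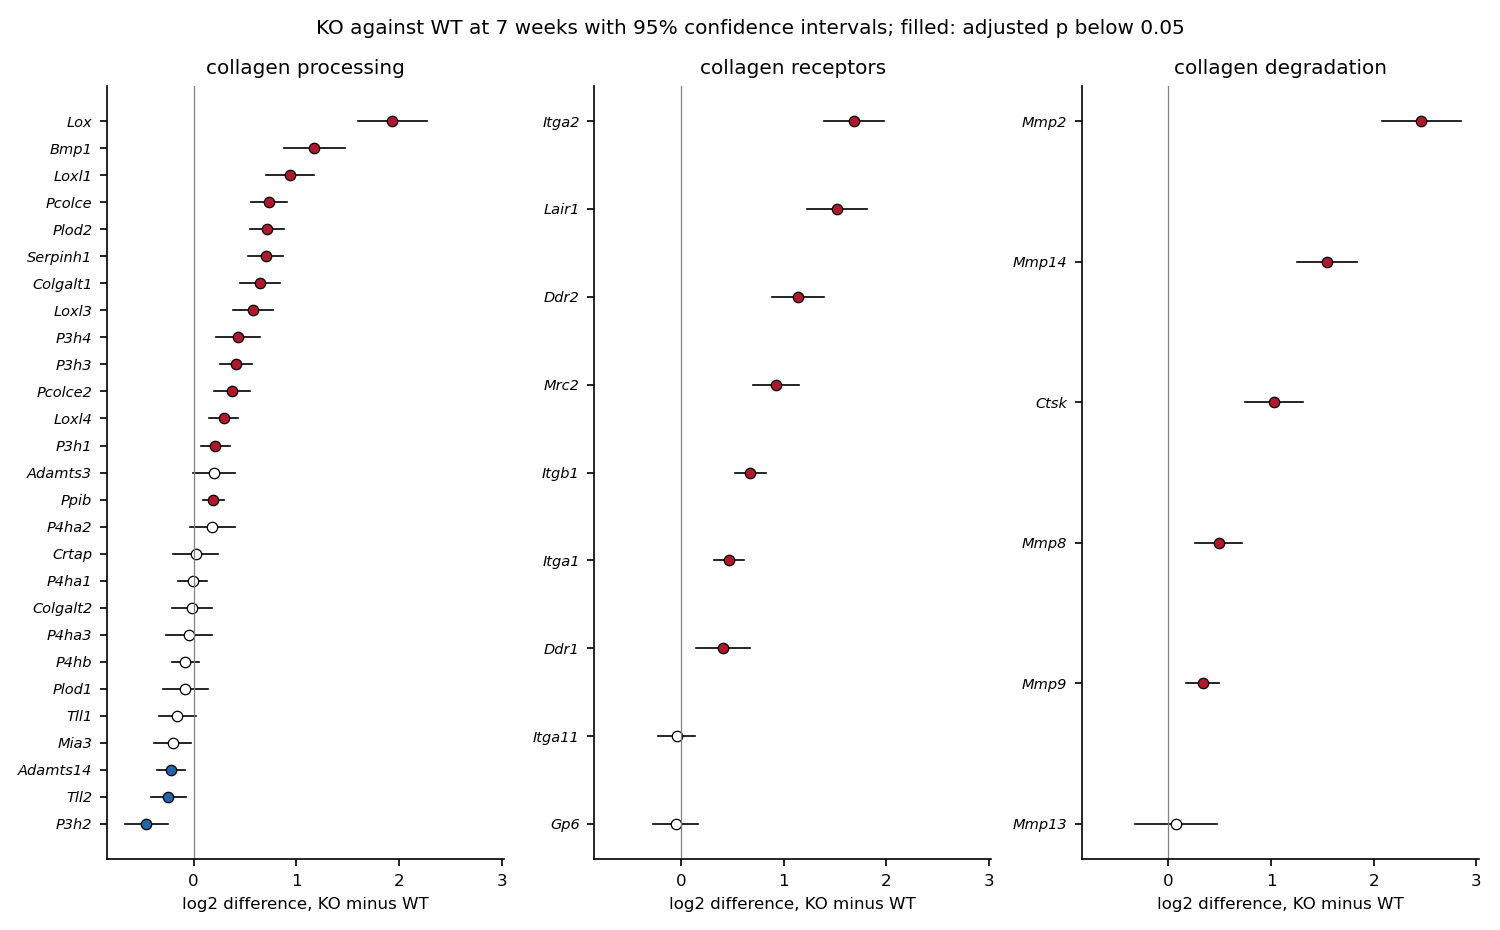
KO minus WT differences at 7 weeks on the log2 scale (horizontal axis, with 95% confidence intervals) for the measured genes of collagen processing, collagen receptors and collagen degradation. Filled points passed the threshold. Lox, Itga2 and Mmp2 head the 3 panels at 1.94, 1.68 and 2.46.

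At 7 weeks the fibroblast and myofibroblast markers and the macrophage markers rose as whole lists, and the other marker lists did not. The counts below stand against 15.6% of all genes higher and 16.7% lower at this age. Of 9 fibroblast and myofibroblast markers 9 rose, among them Dpt, Tagln, Acta2 and Dcn. Their summed linear signal was 6913 to 10765 in KO mice and 2903 to 4151 in WT mice at 7 weeks, and 4035 to 5711 in KO and 3322 to 4543 in WT mice at 4 weeks. Of 5 macrophage markers 5 rose, with a summed signal of 2185 to 6254 in KO mice and 789 to 1089 in WT mice at 7 weeks. Of 5 vascular smooth muscle markers 2 rose, with 915 to 1196 in KO and 796 to 986 in WT mice. Of 5 endothelial markers 2 fell, with 4490 to 5262 in KO and 4549 to 5255 in WT mice. Of 7 kidney epithelial markers 3 fell, with a summed signal of 23458 to 31722 in KO and 31494 to 35703 in WT mice. Of 5 skeletal muscle markers 0 rose and Myh4 fell (-0.37, adjusted p = 0.0350), with a summed signal of 211 to 246 in KO and 202 to 253 in WT mice. Of 4 adipocyte markers 0 rose and Adipoq fell (-0.37, adjusted p = 0.000635), with 106 to 139 in KO and 105 to 145 in WT mice. Both Myh4 (mean 4.15 in KO and 4.53 in WT mice) and Adipoq (3.97 and 4.34) lay below the lower quartile of all genes (4.86). Of 4 urothelium markers 0 passed in either direction. The part of these other cell types in the collagen values was not tested either.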

How the data were processed

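Total RNA of whole kidney was extracted from 32 male mice and hybridised to 1 Affymetrix Mouse Gene 2.0 ST array each, after amplification with a whole-transcript kit, per the labels' protocols. The authors deposited gene-level log2 values made by robust multi-array averaging in Affymetrix Expression Console, per the labels and the submitters' processing notes. The version of that software is not given there. Robust multi-array averaging makes the probe signals of all arrays alike in distribution, so a change in total RNA per kidney is not visible.

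Of 41345 features, 23521 named 1 gene in the platform annotation, 1814 named several and 16010 named none. The feature with the highest mean was kept for each of the 22180 genes, of which 1082 had more than 1 feature. No 2 arrays held identical values. Groups were taken from the labels. Tests used limma 3.58.1 in R 4.3.3 with 1 mean per group, 28 residual degrees of freedom and Benjamini-Hochberg adjustment over all 22180 genes at a threshold of 0.05. They were tested on simulated data. The replicate numbers were not taken as pairs and were used as a block only in an alternative. The labels tie no number to a litter or day.

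All collagens other than type IV may be named. Of the other lists up to 4 genes in each direction with the smallest p, and up to 2 with the largest change that did not pass, were named. The members, the lists and the tests were chosen with earlier results of these data known. Alternatives were the mean of features, centring of arrays, a filter at the 25th percentile, another variance prior, array weights, fits of the compared groups alone, an exact rank-sum test, the replicate block and leaving out each mouse. A second feature of 3 collagens was added as an alternative after seeing the data. Promoter windows came from RefSeq on GRCm38.p6. Tables and figures were made with Python 3.11.15, pandas 2.3.3, numpy 2.4.6 and matplotlib 3.10.9.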

Additional observations from a re-analysis of the deposited data

Results flagged for a closer look

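The KO minus WT difference changed between 4 and 7 weeks for 15 collagens (39.5%) in limma's interaction test, against 17% of all genes. Values are on the log2 scale, 7 weeks minus 4 weeks. As given above, the call of Col5a1 depended on the feature taken, and those of Col27a1 and Col6a6 on single mice. Fibrillar genes gave 1.69 for Col3a1, 1.34 for Col1a1, 1.32 for Col1a2, 0.53 for Col5a2, 0.50 for Col5a1 and -0.61 for Col27a1. Type VI chains gave 0.70 for Col6a1, 0.53 for Col6a3, 0.46 for Col6a2 and -0.54 for Col6a6. The FACITs Col12a1 and Col14a1 gave 1.98 and 0.54. Col8a1, Col15a1 and Col18a1 gave 1.72, 0.92 and 0.64.

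In 7 of 152 sets of 8 mice (38 collagens in 4 groups), 1 mouse lay far from the others by Dixon's ratio, which chance does in about 1 in 20 sets. In KO mice at 7 weeks these were Col6a4 in mouse 5 (5.61, the next highest 5.32) and Col9a3 in mouse 8 (5.12, the next lowest 5.33). In WT mice at 7 weeks it was Col3a1 in mouse 6 (6.53, the next lowest 7.05). In KO mice at 4 weeks it was Col1a2 in mouse 4 (8.27, the next highest 7.87). In WT mice at 4 weeks they were Col3a1 in mouse 6 (7.43, next 7.61), Col15a1 in mouse 4 (5.41, next 5.95) and Col16a1 in mouse 8 (5.17, next 5.50).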

How the results depend on the processing

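The 14 collagens higher in KO mice at 7 weeks passed in every alternative, except Col5a1 read from its second feature, an alternative chosen after seeing the data. That feature gave -0.0808 at 7 weeks, -0.18 for the difference between ages and -0.11 between ages in KO mice, and the cause was not tested. Leaving out single mice gave 17 to 19 collagens that passed at 7 weeks, 0 to 0 at 4 weeks, 13 to 17 for the difference between ages, 15 to 17 between ages in KO and 2 to 7 in WT mice. The replicate block gave 17, 0, 15, 17 and 4, the same counts as without it. At most 2 of 8 same-numbered pairs correlated above 0.1 in any comparison, with r from -0.27 to 0.23. Such correlations cannot decide whether mice were paired, and the labels do not say. The block changed the calls over all genes at 7 weeks to 7067, against 7167 without it, and at 4 weeks to 7 against 9. Centring arrays on their medians moved the 7-week differences by -0.11. It made 8 collagens lower in place of 3, the added ones being Col13a1, Col23a1, Col6a5, Col7a1 and Col9a1, and kept 14 higher. Over all genes the share of higher calls became 23.6% against 48.4% at 7 weeks, with 10892 against 7167 genes called. It became 33.2% against 57.5% for the difference between ages and 35.1% against 50.1% between ages in KO mice. Array weights made 7 lower at 7 weeks and kept 14 higher, and the calls over all genes were not counted for that alternative. Col27a1, Col6a6 and Col19a1 kept their lower 7-week call in every alternative that tested them. Between ages in KO mice Col27a1 also missed the threshold in the exact rank-sum test (adjusted p = 0.156) and when only the compared groups were fitted (adjusted p = 0.0982). Of the 4 collagens whose mean lay below the lower quartile of all genes, Col19a1 was the 1 that passed at 7 weeks, and such low signals limit what these arrays can show.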
